A study of Mus musculus with 18 samples.

Results

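The aryl hydrocarbon receptor (AHR) axis was followed through 6 genes chosen by symbol, with earlier results of these data known. They were Ahr, the receptor, Arnt, its dimerization partner, Ahrr and Tiparp, which restrain it, and Cyp1a1 and Cyp1b1, the cytochrome P450 enzymes that it induces. All 6 were among the 54309 genes of the lymphocyte table and 4 of them, Ahr, Arnt, Ahrr and Tiparp, were among the 13759 genes of the macrophage table. Cyp1a1 and Cyp1b1 were not analysed in macrophages. The lowest total of any gene was 37 counts in the macrophage table and 0 in the lymphocyte table. Absence from the macrophage table therefore cannot tell a gene without counts from one with few counts.

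Livers were taken from C57BL6/J female mice that had received MC38 cells, a mouse colon adenocarcinoma line, into the spleen at 8 to 10 weeks of age and 20 days before the livers were taken, so that every group came from tumor-bearing animals. Lymphocytes that were live, lineage negative, CD45+ and NKp46+ were sorted from pools of 6 to 8 samples of metastasis-free liver (MFL) or of liver metastasis (LM). They were collected in 3 sortings and gave 12 libraries, 3 for each population. From MFL came NK cells, gated as CD49a-CD49b+, and ILC1, gated as CD49a+CD49b-. From LM came CD49a- NK cells in the gate CD49a-CD49b+ and CD49a+ NK cells in the gate CD49a+CD49b+, and the titles of these last libraries call them ILC1. The other 6 libraries held lineage negative CD45+CD11b+ metastasis-associated macrophages (MAMs), 3 labelled F4/80high (F4/80hi) and 3 labelled F4/80low (the F4/80int MAMs of the study). LM was digested with Liberase TL whereas MFL was smashed and filtered, so site and dissociation cannot be told apart.

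AHR waits in the cytosol in a complex with chaperones such as HSP90 and p23 until a ligand, such as a dioxin, a dietary indole or a tryptophan metabolite, binds it. It then enters the nucleus, pairs with ARNT and binds the xenobiotic response element, whose core is GCGTG, in front of genes that include Cyp1a1, Cyp1b1, Tiparp and Ahrr. AHRR competes with AHR for ARNT, and TIPARP attaches ADP-ribose to AHR, so both close a negative loop. In the liver the receptor is best known for xenobiotic metabolism, and among lymphocytes it is known for the maintenance of tissue-resident innate cells.

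Ahr lies on chromosome 12 (chr12:35547973-35585057, minus strand, GRCm39), Arnt at chr3:95341365-95404551 (plus), Tiparp at chr3:65435320-65463365 (plus), Ahrr at chr13:74359237-74440462 (minus), Cyp1a1 at chr9:57595211-57611107 (plus) and Cyp1b1 at chr17:80008966-80022532 (minus). The 250 bases before the annotated canonical start site are printed for 3 genes whose promoters hold several response element cores and whose transcripts behaved differently, a measured target (Tiparp), a repressor with counts in all 6 MAM libraries but in 3 of the 12 lymphocyte libraries (Ahrr) and a classical target that was not detected (Cyp1a1). Capitals mark GCGTG on the printed strand or CACGC, the same core on the other strand.
Tiparp: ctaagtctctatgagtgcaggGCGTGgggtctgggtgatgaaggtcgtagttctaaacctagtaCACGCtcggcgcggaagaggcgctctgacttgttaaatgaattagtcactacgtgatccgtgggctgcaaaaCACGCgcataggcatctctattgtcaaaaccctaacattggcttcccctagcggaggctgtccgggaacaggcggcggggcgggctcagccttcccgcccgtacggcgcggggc
Ahrr: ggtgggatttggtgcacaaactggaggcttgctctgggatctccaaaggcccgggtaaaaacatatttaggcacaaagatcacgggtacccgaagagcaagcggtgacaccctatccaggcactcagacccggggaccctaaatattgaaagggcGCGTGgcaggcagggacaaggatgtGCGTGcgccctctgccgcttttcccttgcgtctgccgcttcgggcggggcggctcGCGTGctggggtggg
Cyp1a1: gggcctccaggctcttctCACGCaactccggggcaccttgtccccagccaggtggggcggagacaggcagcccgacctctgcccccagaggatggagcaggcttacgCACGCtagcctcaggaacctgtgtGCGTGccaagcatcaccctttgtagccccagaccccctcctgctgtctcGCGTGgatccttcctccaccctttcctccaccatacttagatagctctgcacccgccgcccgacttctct
These windows are chr3:65435070-65435319 for Tiparp, chr13:74440463-74440712 for Ahrr and chr9:57603892-57604141 for Cyp1a1, each read towards the gene. Tiparp had 3 cores, at 229, 186 and 114 bases before the start, Ahrr had 3, at 95, 70 and 15 bases, and Cyp1a1 had 4, at 232, 143, 119 and 70 bases. Cyp1b1 had 1 core in the same window and Ahr and Arnt had 0. Of 21757 promoters of the same length, 31.2% held at least 1 core and 2.86% held 3 or more. The longer form TNGCGTG, which contains the core, was found 3 times before Cyp1a1, 1 time before Ahrr and 0 times before Tiparp, and in 4.81% of all promoters.

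Total counts lay between 8795721 and 14386834 per lymphocyte library and between 21278959 and 32267015 per MAM library. Levels are given as CPM, that is counts scaled to a common library size, after TMM scaling, and a gene was called at an edgeR adjusted p under 0.1. The labels were checked against marker lists that share the sorting antigens. The ILC1 list (Itga1, Cxcr6, Zfp683, Il7r) summed highest in MFL ILC1 (1123 to 1205 CPM), followed by the CD49a+ NK cells of LM (123.9 to 200.7 CPM), their CD49a- neighbors (14.5 to 39.9 CPM) and the NK cells of MFL (14.1 to 26.2 CPM). The NK list (Eomes, Itga2, Itgam, S1pr5) summed to 75.9 to 126.2 CPM in ILC1 and 731 to 1439 CPM in the CD49a+ NK cells, below the 2004 to 2383 CPM of both CD49a- groups. Nothing in the labels says how the 3 libraries of a group relate to animals beyond the pools, so p-values measure the spread between these libraries.

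Ahr was the only member that the main test called in lymphocytes, higher in MFL ILC1 and in LM CD49a+ NK cells than in MFL NK cells. In MFL NK cells it was measured at 5.47, 17.1 and 8.88 CPM. LM CD49a- NK cells had 41.8, 71.1 and 17.6 CPM. LM CD49a+ NK cells had 158.7, 89.9 and 163.2 CPM. MFL ILC1 had 110.2, 104.5 and 102.1 CPM, the tightest group. The order of the means was MFL NK cells (10.5 ± 5.98, SD, n = 3), LM CD49a- NK cells (43.5 ± 26.8), MFL ILC1 (105.6 ± 4.14) and LM CD49a+ NK cells (137.3 ± 41.1). Only the last pair of neighbors overlapped, but the lowest LM CD49a- library, at 17.6 CPM, was level with the highest MFL NK library, at 17.1 CPM.

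**Figure D1:**
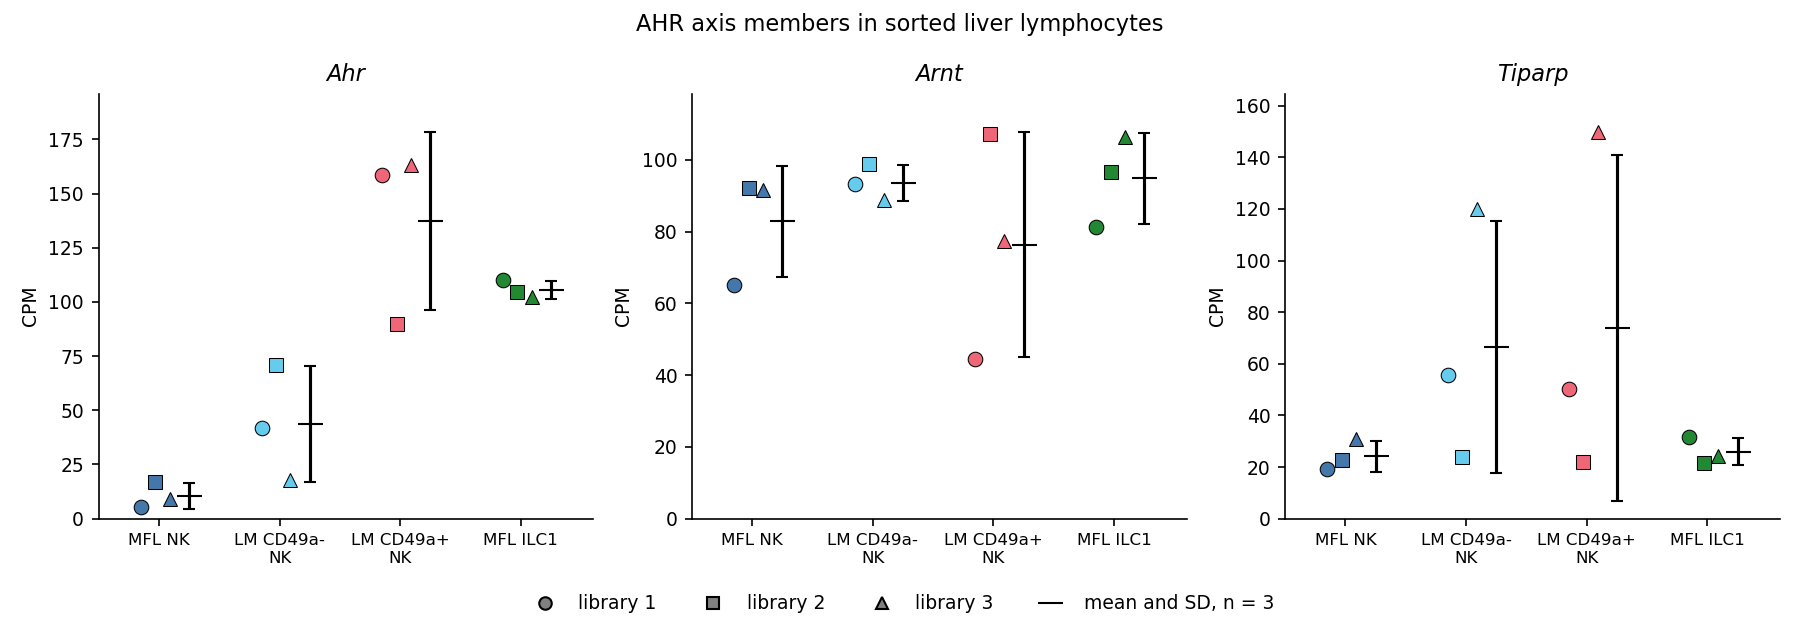
Level in CPM after TMM scaling (y axis, linear) of Ahr, Arnt and Tiparp in the 4 lymphocyte populations (x axis). Each point is a library, shaped by its number, and the bar beside it is the mean and SD of 3 libraries. Ahr spans 5.47 to 17.1 CPM for MFL NK cells and 89.9 to 163.2 CPM for LM CD49a+ NK cells, Arnt stays between 44.4 and 107.2 CPM, and Tiparp is widest in both LM populations.

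Between the MFL populations, Ahr was 10.1-fold higher in ILC1 than in NK cells (log2 fold change 3.33, SE 0.50, edgeR adjusted p = 0.00057). It was the 1 member called of the 3 that passed the filter on low counts, against a background of 1.38% of the 13594 tested genes called higher and 1.68% called lower. The call held in all 21 alternatives, with log2 fold changes from 2.98 to 3.87. Il23r, Il22, Il17a and Ccr6, 4 markers of ILC3, lymphocytes that depend on AHR, were at 0 in every MFL ILC1 library. Markers of T cells (Cd3d, Cd3e, Cd3g, Trac, Trbc2), all 5 of them detected, gave sums of 353.7 to 773.2 CPM in the ILC1 libraries against 28.8 to 42.9 CPM in the NK libraries of MFL, and their part in the Ahr difference was not tested. As in any bulk sample, more cells with the transcript and more transcript per cell cannot be told apart.

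Between LM CD49a+ NK cells and MFL NK cells, Ahr was 13.1-fold higher (log2 fold change 3.71, SE 0.50, edgeR adjusted p = 0.00143), where 0.427% of genes were called higher and 0.221% lower. It was called in all 21 alternatives (3.23 to 4.25). The same 4 ILC3 markers were at 0 in every LM CD49a+ library, and T cell markers summed to 44.7 to 80.7 CPM there.

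LM CD49a- NK cells lay between these groups and were not separated from either by the main test. Against MFL NK cells Ahr was 4.14-fold higher without overlap (log2 fold change 2.05, SE 0.47, edgeR adjusted p = 0.243), where 0.0662% of genes were called higher and 0.00736% lower. Of the 3 members tested, edgeR called 0, 2 had an unadjusted p under 0.05 (Ahr and Tiparp), DESeq2 called 1 (Ahr, adjusted p = 0.00572) and limma-voom called 0. Over all 13594 tested genes, 914 had an unadjusted p under 0.05 by edgeR, DESeq2 called 161 and limma-voom called 104. Without LM CD49a- NK replicate 3, the lowest library of its group, edgeR called Ahr as well (log2 fold change 2.41, adjusted p = 0.0324), and over the 21 alternatives the adjusted p ran from 0.000123 to 1.

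Within LM, the CD49a+ NK cells had 3.16-fold more Ahr than the CD49a- ones, again without overlap of the 3 libraries of each group (log2 fold change 1.66, SE 0.46, edgeR adjusted p = 0.28). Here 0.0662% of genes were called higher and 0.0736% lower. EdgeR called 0 of the 3 members with 1 at an unadjusted p under 0.05, DESeq2 called 1 (Ahr, adjusted p = 0.0468) and limma-voom called 0. Over all 13594 tested genes, 1579 had an unadjusted p under 0.05 by edgeR, DESeq2 called 543 and limma-voom called 0. Without LM CD49a- NK replicate 2, the highest library of that group, edgeR called Ahr (log2 fold change 2.21, adjusted p = 0.0843), and over the 21 alternatives its adjusted p ran from 0.00692 to 1.

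LM CD49a+ NK cells and MFL ILC1 were not separated by Ahr, with a log2 fold change of 0.38 (SE 0.45, 95% interval -0.57 to 1.33, edgeR adjusted p = 0.848). In this comparison 2.29% of genes were called higher and 1.29% lower, while edgeR, DESeq2 and limma-voom each called 0 of the 3 members. At an unadjusted p under 0.05 edgeR had 1 of the 3, Tiparp, and 1913 of all 13594 tested genes. The interval leaves room for a difference of more than 2-fold towards LM CD49a+ NK cells.

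An interaction term took CD49a+ NK cells as the CD49a+ cells of LM and ILC1 as those of MFL. Site and cell type therefore cannot be told apart in it. By this term the difference in Ahr between CD49a+ and CD49a- cells was compared between LM and MFL. It was smaller in LM than in MFL by 1.67 on the log2 scale (log2 interaction -1.67, SE 0.65, 95% interval -3.03 to -0.31), and this did not pass the threshold (edgeR adjusted p = 0.459). For the interaction 0.625% of genes were called higher and 0.405% lower. EdgeR, DESeq2 and limma-voom each called 0 of the 3 members, with 1, 1 and 0 of them at an unadjusted p under 0.05. By edgeR 1183 of all 13594 tested genes had such a p.

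Arnt, the partner with which AHR binds its element, was not called in any lymphocyte comparison. It was measured at 65.0, 92.1 and 91.5 CPM in MFL NK cells. LM CD49a- NK cells had 93.1, 98.9 and 88.9 CPM. LM CD49a+ NK cells had 44.4, 107.2 and 77.4 CPM, and MFL ILC1 had 81.4, 96.7 and 106.5 CPM. All 4 groups overlapped, and the log2 fold changes of the 5 pairwise comparisons ran from -0.31 to 0.19, with edgeR adjusted p from 0.783 to 1. The widest of their 95% intervals reached -0.96, so a change of up to about that size is not excluded.

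Per length of exon, the receptor and its partner changed places in rank between the populations. Levels of different genes were compared per length, as CPM per kb of exon, over the 6.18 kb of Ahr and the 9.35 kb of Arnt. In MFL NK cells Ahr stood at 0.13, 0.28 and 0.15 times Arnt. In LM CD49a- NK cells it stood at 0.68, 1.09 and 0.30 times Arnt. In LM CD49a+ NK cells it stood at 5.40, 1.27 and 3.19 times Arnt, and in MFL ILC1 at 2.05, 1.63 and 1.45 times. Per length, Ahr was thus below Arnt in all 3 MFL NK libraries and above it in all 6 libraries of LM CD49a+ NK cells and MFL ILC1. This order depends on the lengths, which count all annotated exons of a gene. In CPM, Ahr was below Arnt in LM CD49a+ NK replicate 2 (89.9 against 107.2) and MFL ILC1 replicate 3 (102.1 against 106.5). It was above Arnt in the other libraries of these groups. The ratio of 5.40 came from the library with the lowest Arnt, 44.4 CPM.

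**Figure D2:**
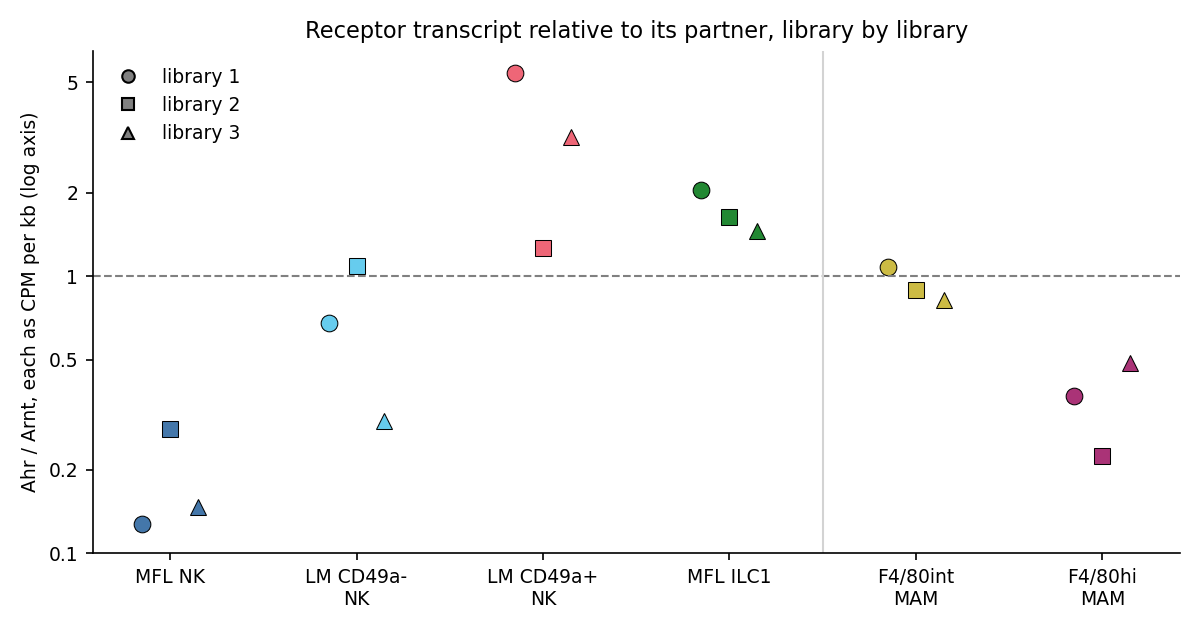
Ratio of Ahr to Arnt within each library, both as CPM per kb of exon (y axis, log scale), for the 6 populations (x axis). The dashed line marks equal levels, and the grey line separates the lymphocyte and MAM experiments, which were scaled apart. MFL NK cells lie at 0.13 to 0.28, MFL ILC1 at 1.45 to 2.05 and F4/80hi MAMs at 0.22 to 0.49.

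Tiparp, which ADP-ribosylates AHR and is among its direct targets, did not follow Ahr in the lymphocytes. MFL NK cells had 19.2, 22.6 and 30.8 CPM. MFL ILC1 had 31.7, 21.7 and 24.3 CPM, at 10.1-fold more Ahr. The log2 fold change between them was 0.10 (SE 0.60, 95% interval -1.17 to 1.37, edgeR adjusted p = 1). LM CD49a- NK cells had 55.8, 23.8 and 119.8 CPM, and LM CD49a+ NK cells had 50.1, 22.1 and 149.8 CPM. In each LM population the library numbered 2 was level with MFL and the library numbered 3 was the highest. Tiparp was not called in any lymphocyte comparison. Its log2 fold changes were 1.61 (SE 0.62, edgeR adjusted p = 0.41) for LM CD49a+ NK cells over MFL NK cells, 1.51 (SE 0.61, adjusted p = 0.268) over MFL ILC1, and 1.46 (SE 0.61, adjusted p = 0.723) for LM CD49a- over MFL NK cells. Within LM it was 0.15 (SE 0.60, adjusted p = 0.968). With no filter on low counts edgeR called it for LM CD49a+ NK cells over MFL NK cells (adjusted p = 0.0623) and over MFL ILC1 (adjusted p = 0.0642). Without LM CD49a+ NK replicate 3 the first of these log2 values fell to 0.57 and the second to 0.47, and without LM CD49a+ NK replicate 2 the second was called (1.94, adjusted p = 0.0991). Over the 21 alternatives the adjusted p ran from 0.0623 to 0.875 for the first and from 0.0642 to 0.848 for the second.

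**Figure D3:**
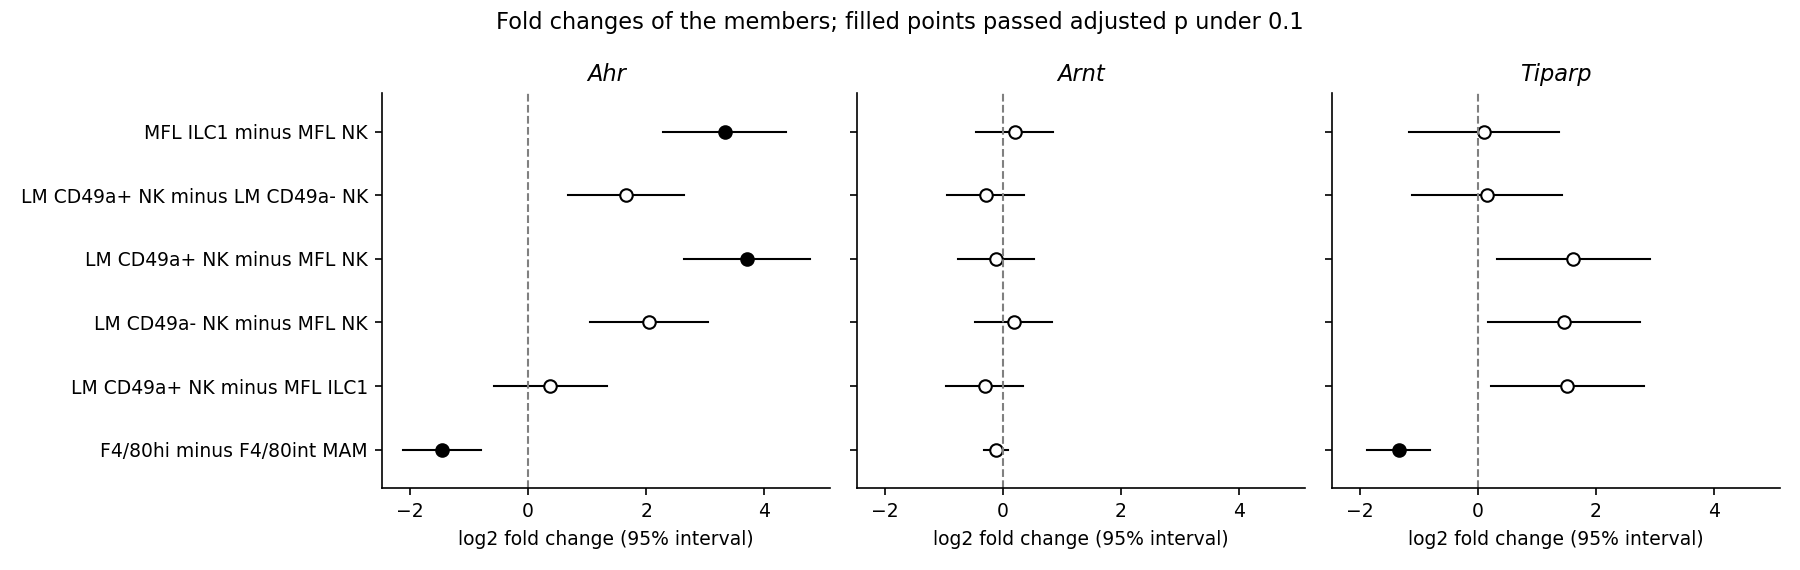
Log2 fold change (x axis) of Ahr, Arnt and Tiparp in 6 comparisons (y axis), with 95% intervals from edgeR's quasi-likelihood fit. Filled points passed an adjusted p under 0.1. Ahr is the only member of the 3 called in lymphocytes, at 3.33 and 3.71, and both Ahr (-1.46) and Tiparp (-1.35) are called lower in F4/80hi MAMs.

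The repressor and the enzymes were at or near the limit of detection in lymphocytes. Ahrr had 0 counts in all 6 libraries of CD49a- cells from MFL and LM, 0, 0 and 1 counts in LM CD49a+ NK cells, and 0, 2 and 7 counts in MFL ILC1. The 7 counts correspond to 0.66 CPM. Cyp1b1 had 4 counts in MFL ILC1 replicate 2 and 0 counts in the other 11 libraries. That library also had the highest sum of macrophage markers, 115.1 CPM over 8 genes, against 8.05 and 9.59 CPM in the other ILC1 libraries, and their part in the Cyp1b1 counts was not tested. Cyp1a1, with 4 cores in its printed promoter, had 0 counts in all 12 libraries. A count of 0 allows up to 3 counts, or 0.22 to 0.33 CPM depending on the library, and covers counting error only. None of these 3 genes passed the filter, so none was tested.

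MAMs differed in the receptor and in Tiparp, and less firmly in Ahrr. F4/80int MAMs had Ahr at 50.9, 42.1 and 38.7 CPM, and F4/80hi MAMs had 16.4, 8.79 and 22.6 CPM. The highest F4/80hi library thus lay below the lowest F4/80int library, and Ahr was 2.76-fold lower in F4/80hi MAMs (log2 fold change -1.46, SE 0.29, edgeR adjusted p = 0.00365). Tiparp was at 110.6, 59.2 and 110.8 CPM in F4/80int and at 39.0, 31.2 and 40.0 CPM in F4/80hi MAMs, again without overlap (log2 fold change -1.35, SE 0.23, adjusted p = 0.00182). Ahr and Tiparp were called lower in all 14 alternatives. Here 27.8% of the 13759 genes, none with a total under 37 counts, were called higher and 27.1% lower, so calls of this kind were common.

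Ahrr, which competes for ARNT, moved the other way at a very low level. F4/80int MAMs had 17, 20 and 13 counts, or 0.56, 0.68 and 0.56 CPM, and F4/80hi MAMs had 20, 25 and 48 counts, or 0.90, 0.89 and 1.56 CPM. The groups did not overlap and Ahrr was called higher (log2 fold change 0.89, SE 0.36, edgeR adjusted p = 0.0727), but the call was lost in 8 of 13 alternatives, DESeq2 (adjusted p = 0.151) and limma-voom (adjusted p = 0.101) among them. Leaving out F4/80hi replicate 3 lowered the log2 value to 0.56 (adjusted p = 0.265), and the call was also lost without F4/80int replicate 1, 2 or 3 (adjusted p = 0.174, 0.105 and 0.156). Arnt was at 71.3, 71.7 and 71.1 CPM in F4/80int and at 67.1, 59.1 and 70.2 CPM in F4/80hi MAMs and was not called (log2 fold change -0.12, SE 0.09, adjusted p = 0.273). Per length, Ahr stood at 1.08, 0.89 and 0.82 times Arnt in F4/80int MAMs and at 0.37, 0.22 and 0.49 times in F4/80hi MAMs.

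The MAM subsets also differed in markers of other myeloid cells. Dendritic cell markers (Flt3, Xcr1, Zbtb46, Cd209a), all 4 detected, summed to 225 to 331.2 CPM in F4/80int MAMs and to 6.16 to 8.01 CPM in F4/80hi MAMs. The monocyte markers Ly6c2, Ccr2 and Plac8 summed to 1894 to 2007 CPM against 436.9 to 550.9 CPM, and macrophage markers to 9300 to 11571 CPM against 18941 to 24888 CPM. Their part in the differences of the AHR genes was not tested.

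**Figure D4:**
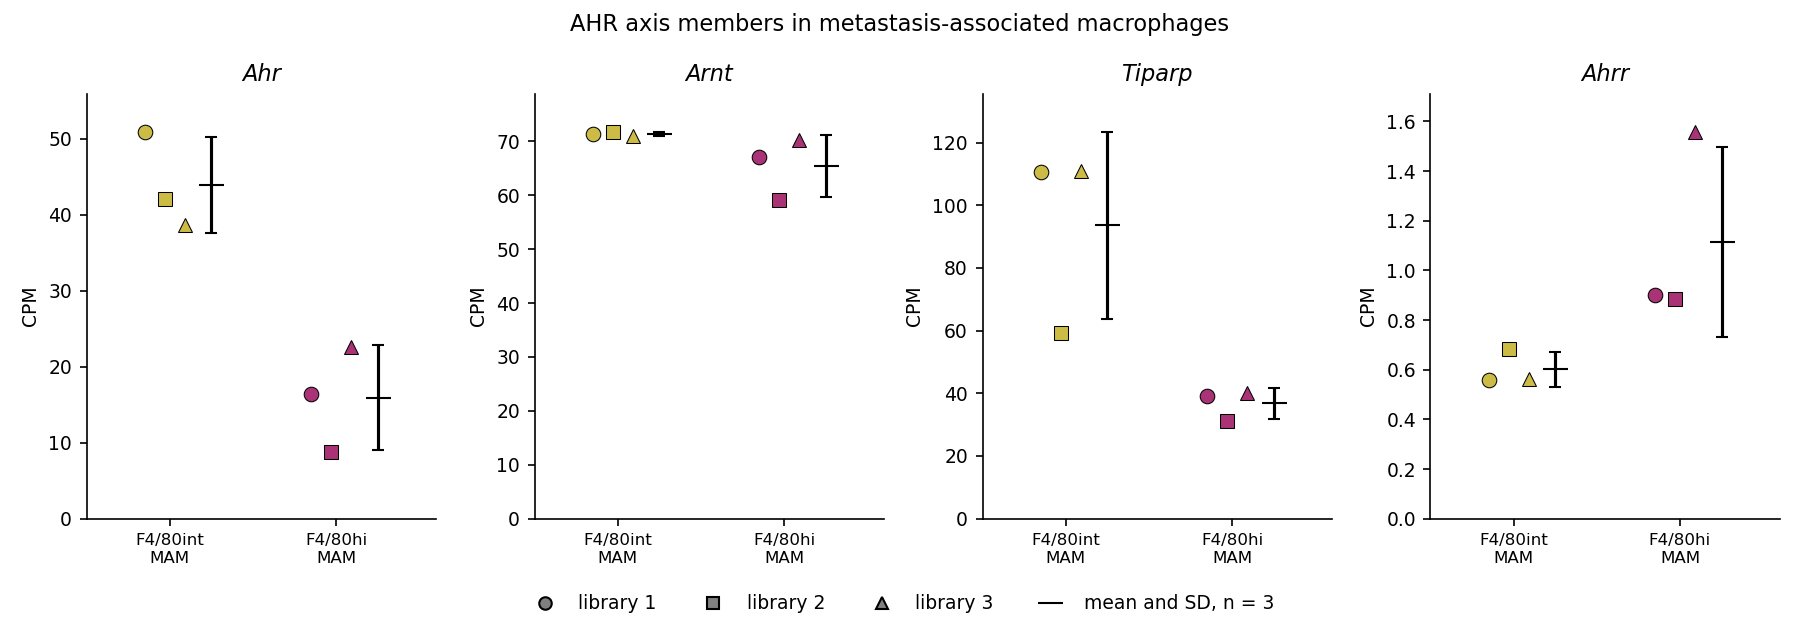
Level in CPM after TMM scaling (y axis, linear, a scale of its own in each panel) of Ahr, Arnt, Tiparp and Ahrr in F4/80int and F4/80hi MAMs (x axis). Points are libraries and bars are the mean and SD of 3. Ahr and Tiparp sit lower in all 3 F4/80hi libraries, Arnt sits between 59.1 and 71.7 CPM in all 6, and Ahrr reaches at most 1.56 CPM.

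Beyond the 6 members, 47 genes of the pathway listed by role are described, of which 29 were tested in lymphocytes and 36 in MAMs. Of the 29, 2 were called higher and 1 lower in MFL ILC1 over MFL NK cells, 1 higher in LM CD49a+ NK over MFL NK cells, and 3 higher in LM CD49a+ NK cells over MFL ILC1. Over all tested genes 1.38% were called higher and 1.68% lower in the first of these comparisons, 0.427% higher in the second and 2.29% higher in the third. These counts depended on the tool. In the same order DESeq2 called 3, 4 and 5 of the 29, and limma-voom called 11, 3 and 8. Over all tested genes DESeq2 called 667, 365 and 1010, and limma-voom called 2645, 307 and 935. EdgeR called 0 within LM (3 at an unadjusted p under 0.05, 2 called by DESeq2 and 0 by limma-voom), 0 for LM CD49a- over MFL NK cells (4, 0 and 0) and 0 for the interaction (1, 0 and 0). Over all 13594 tested genes edgeR had 1579, 914 and 1183 at an unadjusted p under 0.05, in that order. DESeq2 called 543, 161 and 349 of them. The median log2 fold change of the 29 genes in MFL ILC1 over MFL NK cells was 0.12, beside 0.01 over all genes tested.

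Among the other bHLH-PAS factors, the family of AHR and ARNT, Arnt2 marked MFL ILC1. Arnt2 encodes a close relative of ARNT that can take its place in dimers. It had 362, 330 and 289 counts in MFL ILC1 (30.7, 24.2 and 27.4 CPM) and 0 counts in every MFL NK and LM CD49a- NK library. Against a floor of 3 counts per library the MFL ILC1 level was at least 119.9-fold higher than that of MFL NK cells, and edgeR called it (adjusted p = 0.0212). LM CD49a+ NK cells had 0, 31 and 4 counts and did not overlap with MFL ILC1, but that difference was not called (log2 fold change -4.84, SE 1.74, adjusted p = 0.22). LM CD49a+ NK cells and MFL ILC1 thus had Ahr at overlapping levels and Arnt2 at levels that did not overlap. Arnt2 lies at chr7:83895483-84059740 on the minus strand.

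Hif1a, the hypoxia factor that also pairs with ARNT, stood at 152.6, 185.1 and 244 CPM in the CD49a+ NK cells of LM, and MFL NK cells had 85.1, 103.2 and 93.1 CPM. It was called higher (log2 fold change 1.05, SE 0.23, edgeR adjusted p = 0.0662), a call lost in 8 of 21 alternatives, among them without MFL NK replicate 1, 2 or 3 (adjusted p = 0.363, 0.265 and 0.37), without MFL ILC1 replicate 2 or 3 (0.117 and 0.116) and without LM CD49a+ NK replicate 3 (0.251). Over MFL ILC1, with 79.2, 96.1 and 92.8 CPM, it was called in all 21 alternatives (log2 fold change 1.12, SE 0.24, adjusted p = 0.0136). LM CD49a- NK cells had Hif1a at 157.2, 144.4 and 176.3 CPM, also without overlap with MFL NK cells. That difference was not called (log2 fold change 0.76, SE 0.23, edgeR adjusted p = 0.549). Hif1a was not called between the LM populations either (log2 fold change 0.28, SE 0.23, edgeR adjusted p = 0.698). Hsp90ab1, a chaperone of the cytosolic complex, was called higher for LM CD49a+ NK cells over MFL ILC1 (log2 fold change 1.02, adjusted p = 0.0169), a call lost without MFL ILC1 replicate 1 (adjusted p = 0.118). Here too site and dissociation cannot be told apart.

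Socs2, a suppressor of cytokine signaling that AHR induces in immune cells, was at 68.8, 82.0 and 89.2 CPM in MFL ILC1 and at 10.1, 4.35 and 3.96 CPM in MFL NK cells (log2 fold change 3.70, SE 0.67, edgeR adjusted p = 0.00335). LM CD49a+ NK cells had 26.7, 20.96 and 40.6 CPM, above the 7.13, 1.77 and 11.8 CPM of LM CD49a- NK cells in all 3 libraries. That difference within LM was not called (log2 fold change 2.08, SE 0.63, edgeR adjusted p = 0.286). Nor was Socs2 called for LM CD49a+ NK cells over MFL NK cells (log2 fold change 2.26, SE 0.63, edgeR adjusted p = 0.201). Slc7a5, a carrier of tryptophan and kynurenine across the membrane, was lowest where Socs2 was highest. MFL ILC1 had 2.63, 7.47 and 7.48 CPM, and the CD49a+ NK cells of LM had 38.4, 32.9 and 34.7 CPM (log2 fold change 2.59 for LM CD49a+ NK cells over MFL ILC1, adjusted p = 0.0194). MFL NK cells had 30.4, 22.3 and 21.4 CPM, and the lower level in MFL ILC1 was called (log2 fold change -2.07, adjusted p = 0.0715). That last call was lost in 7 of 21 alternatives, the 6 fits without any one of the MFL NK or MFL ILC1 libraries (adjusted p from 0.156 to 0.288) among them.

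In MAMs, 6 of the 36 pathway genes were called higher and 15 lower in F4/80hi MAMs, where 27.8% of all tested genes were called higher and 27.1% lower. These shares are also the background of each group that follows, so a group with about every other gene called does not stand out. Of 9 tested genes listed as ligand supply, enzymes and carriers of tryptophan metabolism, 1 was called higher and 4 lower. Endogenous AHR ligands come from this metabolism, but the list holds enzymes that make such metabolites and enzymes that use them up. These counts therefore give no direction for the supply of ligand. Ido1, Ido2 and Tdo2, also on the list, were not among the MAM genes, which included none with a total under 37 counts. Il4i1, an amino acid oxidase whose tryptophan products activate AHR, was at 104.7, 70.8 and 56.3 CPM in F4/80int and at 2.97, 1.67 and 2.14 CPM in F4/80hi MAMs (log2 fold change -5.12, SE 0.29, edgeR adjusted p = 6.68e-06). Kmo, kynurenine monooxygenase, was at 162.7, 154 and 104.2 CPM against 5.58, 5.03 and 5.64 CPM (log2 fold change -4.69, SE 0.19, adjusted p = 1.81e-06). Kynu, kynureninase, was at 42.9, 37.7 and 24.3 CPM against 2.79, 2.09 and 1.65 CPM (log2 fold change -4.02, SE 0.27, adjusted p = 1.21e-05). None of these groups overlapped. The dendritic cell markers given above moved in the same direction, and their part was not tested.

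Of the 8 immune genes tested that are described as AHR targets, 2 were called higher and 5 lower. Kit, a growth factor receptor, was at 77.7, 76.9 and 47.0 CPM in F4/80int and at 1.53, 1.74 and 1.20 CPM in F4/80hi MAMs (log2 fold change -5.50, edgeR adjusted p = 2.87e-06). Itgae, the integrin chain CD103, was at 44.5, 64.2 and 22.0 CPM against 2.07, 1.20 and 2.66 CPM (log2 fold change -4.45, adjusted p = 9.54e-05). Socs2 was at 47.9, 35.4 and 26.5 CPM against 5.90, 4.18 and 3.05 CPM (log2 fold change -3.08, adjusted p = 6.57e-05). Itgae and Kit are also expressed by dendritic cells, whose markers differed in the same direction. Haao and Slc7a8 of the ligand group, and Gpr15, Il1r1, Il10 and Entpd1 of the immune group, are named besides after their values were seen. Slc7a8, Il10 and Entpd1 were the 3 called higher in these groups, and the calls of Il10 and Entpd1 were lost in 6 and 5 of 14 alternatives, for both genes without F4/80hi replicate 1 or 3 or F4/80int replicate 2 or 3 (adjusted p from 0.113 to 0.341).

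**Figure D5:**
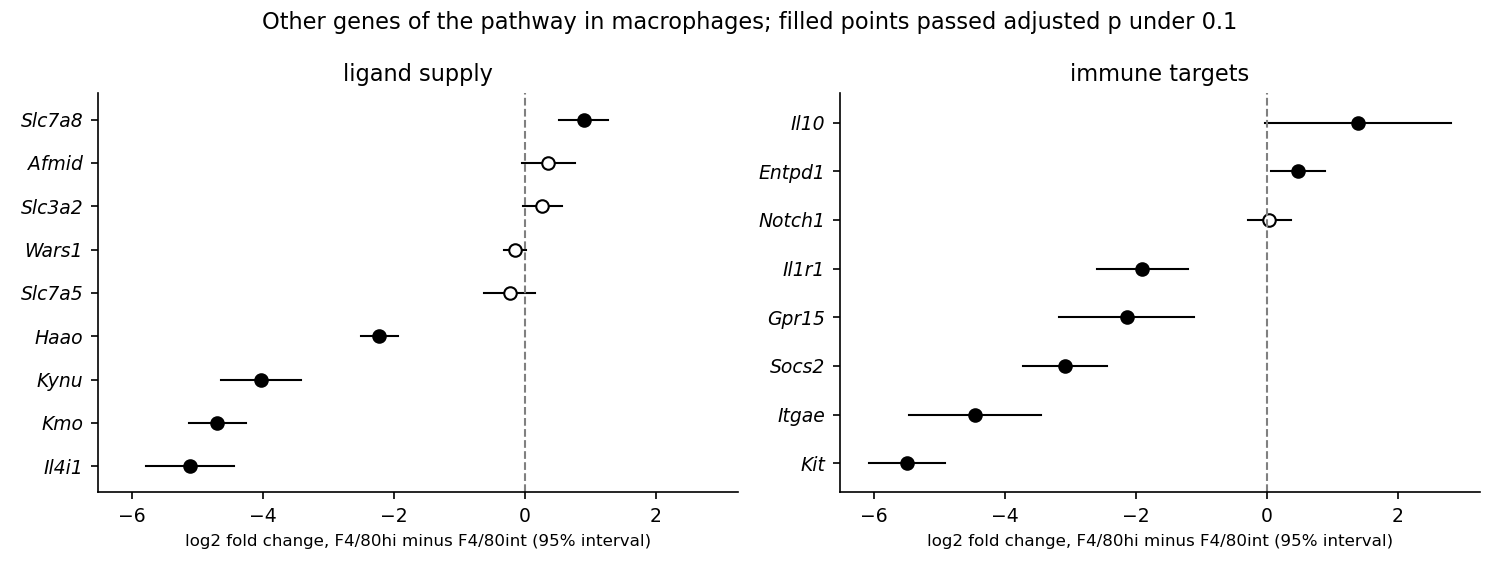
Log2 fold change of F4/80hi over F4/80int MAMs (x axis) with 95% intervals for the tested genes (y axis) of ligand supply (left) and of immune targets (right). Filled points passed an edgeR adjusted p under 0.1. Il4i1 (-5.12), Kmo (-4.69), Kit (-5.50) and Itgae (-4.45) lie farthest to the left, and Slc7a8 (0.90) is the called gene of ligand supply to the right.

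Of 8 coregulators 5 were called lower and 0 higher, Nrip1 (log2 fold change -0.64), Ncoa1 (-0.46) and Crebbp (-0.42) with the largest changes. The calls of Ncoa2 and Ncoa3, also named after their values were seen, were lost in 7 and 5 of 14 alternatives, for both without F4/80hi replicate 1 or 2 or F4/80int replicate 2 or 3 (adjusted p from 0.119 to 0.255). Of 5 bHLH-PAS factors tested, Hif1a was lower (log2 fold change -1.29, adjusted p = 1.26e-05), and the clock factors Bmal1 (0.87) and Clock (0.50) were higher. Of 3 xenobiotic enzymes and regulators tested, 1 was called higher, Nqo1, a quinone reductase, with 5 to 9 counts in F4/80int and 19 to 26 counts in F4/80hi MAMs (log2 fold change 1.72, adjusted p = 0.00731). Over the 36 genes the median log2 fold change was -0.23, beside 0.01 over all genes.

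Genes with a course like that of Ahr were sought over the 12 lymphocyte libraries, by Pearson's r of log2 CPM among 9774 genes with a mean of at least 5 CPM. Libraries of a group share their source, so r is a description. The 5 highest were Itgb3, the integrin beta 3 chain (r = 0.94), the kinase Pim2 (0.93), the ubiquitin ligase Rnf213 (0.92), the exchange factor Dock9 (0.92) and Rbpj, the transcription factor of Notch signaling (0.92). Itgb3 had 11.3 to 19.0 CPM in the NK cells of MFL and 74.5 to 93.6 CPM in its ILC1. In LM it had 58.8 to 75.3 CPM in CD49a- and 118.7 to 206 CPM in CD49a+ NK cells. Itga1, which encodes the sorting antigen CD49a, had r = 0.75. By Spearman's rho 3 of the 5 (Itgb3, Pim2 and Dock9) were again among the highest 5. For Tiparp the 5 highest were the methyltransferase Dot1l (r = 0.97), Vps37b (0.96), Dennd4a (0.96), Gm43305 (0.95) and Skil, a repressor of TGF-β signaling (0.94), and 0 of them were among the highest 5 by rho. Vps37b ran from 352.8 to 1788 CPM in LM CD49a- and from 308.4 to 1614 CPM in LM CD49a+ NK cells, against 257.9 to 388.4 CPM in the MFL populations, a spread like that of Tiparp.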

How the data were processed

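Per the labels and the study's methods, lymphocyte reads (stranded total RNA) were trimmed with Trim Galore and assigned by the authors with Salmon v1.5.0 to GENCODE M27 (GRCm39). The deposited values are estimated counts, whole numbers in the files, and not normalized. For MAMs (poly(A) libraries) the labels name Trim Galore and Salmon v1.10.0, while build and annotation are not given in the sources used here. Estimated reads of overlapping genes can be split by Salmon.

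Gene IDs were named from GENCODE vM39. Counts were filtered (filterByExpr, 13594 and 13759 genes), scaled by TMM and tested with edgeR v4.0.16 (quasi-likelihood F, R v4.3.3) in one fit of 12 lymphocyte libraries and one of 6 MAM libraries, with Benjamini-Hochberg adjustment over all tested genes. SE is the log2 fold change divided by the square root of F. DESeq2 v1.42.0 and limma-voom v3.58.1 served as alternatives. The fit was tested on simulated data. Members and lists were chosen with earlier results of these data known. Of other pathway genes, up to 3 called per list and comparison, by size of change, are named. Some genes of the lists are not reported here. With 3 libraries against 3, an exact permutation test cannot go below p = 0.1.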

Additional observations from a re-analysis of the deposited data

How the results depend on the processing

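Over 139 recomputed counts of members called, 130 stayed within 1.5 times the reported count and 9 did not. With DESeq2, 1 member (Ahr) in place of 0 was called for LM CD49a+ over LM CD49a- NK cells and 1 (Ahr) in place of 0 for LM CD49a- over MFL NK cells. With no filter on low counts, 1 in place of 0 (Ahr) was called in each of these, 2 in place of 1 (Ahr and Tiparp) for LM CD49a+ over MFL NK cells and 1 in place of 0 (Tiparp) for LM CD49a+ NK cells over MFL ILC1. Leaving out 1 library gave 0 to 1 members called for LM CD49a+ over LM CD49a- NK cells, 0 to 1 for LM CD49a- over MFL NK cells, 0 to 1 for LM CD49a+ NK cells over MFL ILC1 and 2 to 3 for the MAMs. The cause of these changes was not tested. Of 430 recomputed member fold changes, 399 kept their direction and their side of the threshold, and 0 called values reversed.

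Counts over all genes moved more. For MFL ILC1 over MFL NK cells, 416 became 667 with DESeq2, 2645 with limma-voom and 1228 with only the libraries compared. Within LM, 19 became 543 with DESeq2, 0 with limma-voom (746 at an unadjusted p under 0.05), 3 with only the libraries compared and 200 with no filter. For LM CD49a+ over MFL NK cells, 88 became 365 with DESeq2, 371 with no filter and 307 with limma-voom. For LM CD49a- over MFL NK cells, 10 became 161, 158 and 104, and 3 with only the libraries compared. For LM CD49a+ NK cells over MFL ILC1, 486 became 1010, 774 and 935, and for the interaction 140 became 349 with DESeq2 and 264 with no filter. At an adjusted p under 0.05 they were 8 within LM, 57, 4, 322 and 90 in that order. Leaving out 1 library gave 268 to 562, 5 to 267, 26 to 168, 1 to 110, 257 to 708 and 75 to 256 in the same order of 6 comparisons.

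The replicate numbers were not taken to pair the libraries, since not every correlation was over 0.1, and whether same-numbered libraries came from the same sorting is not given in the sources used here (correlations of same-numbered deviations from the group means of -0.05 to 0.10 over 18 pairs of lymphocytes and -0.01 to 0.17 over 3 pairs of MAMs). With the number as a replicate block, 1, 0, 1, 0, 0 and 0 members were called in the 6 lymphocyte comparisons and 2 in the MAMs, where Ahrr was lost (adjusted p = 0.128), and all-gene counts ran from 15 to 484 in lymphocytes and were 7512 in MAMs.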
